A study of Mus musculus with 8 samples.

Results

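Nuclear genes that copy, transcribe, stabilise or boost mitochondrial DNA and its RNA were followed in RNA sequencing of mouse retina. The 10 genes were chosen by name for their function, with earlier results of these data known, and all 10 of them were found among the 24860 gene symbols of the table and among the 12858 tested. 4 libraries came from retina given AAV2-shCX36, an adeno-associated viral vector. Its hairpin RNA is directed at connexin 36, which forms the electrical synapses of many retinal neurons. The other 4 carried AAV2-scramble, which the sample descriptions also spell AAV2-shScramble, so both groups share the viral vector and a hairpin, and no group without virus is used here. The labels name retina as tissue and RGCs, retinal ganglion cells, as cell type. Strain, age, sex, injury, vector promoter, dose and time after injection are not given in the sources used here, and the text on the series speaks of different mice without tying a library to an animal. The series title names inhibition of neuronal gap junctions and neuroprotection, and the comparison here asks what the 10 genes did in that setting.

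Mitochondrial DNA is transcribed by its own RNA polymerase, POLRMT, which needs TFAM to bind and bend the promoter and TFB2M to open it. The same TFAM packages the genome, and POLG copies it. The resulting RNAs are kept stable by the LRPPRC and SLIRP pair. In the nucleus, the coactivator PGC-1α, made from Ppargc1a, works through factors such as NRF1, GABPA and ERRα (Esrra) to raise many of these genes, a programme called mitochondrial biogenesis. Retinal neurons, photoreceptors above all, are known for a high demand on mitochondrial energy supply.

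Values are in FPKM, fragment counts scaled to gene length and library size. An estimate from single-exon genes put the depth at 35.9 to 39.0 M fragments per library, and with annotated exon lengths this leaves from about 431 fragments for Ppargc1a in its lowest library to about 6834 for Lrpprc in its highest. Gjd2, the gene of connexin 36, had 13.996 to 17.0 FPKM in AAV2-shCX36 and 38.7, 35.9, 17.4 and 18.2 in AAV2-scramble 1 to 4. The groups did not overlap, but AAV2-scramble 3 and 4 lay close to the AAV2-shCX36 libraries, and the difference in means rests mostly on AAV2-scramble 1 and 2. That pair also stood apart in other cells' transcripts, with 6 oligodendrocyte markers summing to 52.0 and 160 FPKM against 10.6 to 11.95 in the other 6 libraries, 6 bipolar cell markers to 239 and 244 against 53.2 to 117, and 6 microglia markers to 689 and 656 against 151 to 336. Marker sums also moved with the groups. They were 578 to 789 FPKM against 937 to 1441 in controls for 6 rod markers, of which 4 fell. For 6 cone markers, of which 2 fell, they were 1568 to 2427 against 2714 to 4150. For 7 Müller glia markers, of which 3 fell, they were 370 to 589 against 613 to 1006. Glul had the largest part in the Müller glia sums, with means of 169 against 416 FPKM. Of these markers 6 had a negative difference and 1 a positive one, Apoe (138 against 119 FPKM, adjusted p = 0.556 in limma). Sums were 65.6 to 92.9 against 109 to 115 for 4 horizontal cell markers and 40.3 to 50.8 against 50.9 to 56.2 for 6 amacrine cell markers, of which 1 each fell. The sums of 5 lens markers overlapped, at 11.3 to 275 against 0.136 to 13.6, highest in AAV2-shCX36 1 and 4 (125 and 275). None of the 3 lens markers tested was called, and Lim2 was listed at 0 in every control and in AAV2-shCX36 2 and 3. Of the microglia markers 1 fell. For 8 ganglion cell markers, none of them called, the sums were 2262 to 2436 against 1356 to 2343. The lowest were those of AAV2-scramble 1 and 2, at 1782 and 1356. In bulk tissue, fewer cells of a type and less RNA per cell cannot be told apart, and the part of these shifts in the results on the 10 genes was not tested.

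1 of the 10 genes, Tfb2m, rose after AAV2-shCX36, and none fell. In limma, with p adjusted over every gene tested by the Benjamini-Hochberg method and a threshold of 0.05, 2.24% of all genes were called higher and 2.52% lower. Tfb2m and Lrpprc were also the only members of the set with an unadjusted p under 0.05, which 22.6% of all genes had, and the only ones whose groups did not overlap. In both, every AAV2-shCX36 library lay above every control, as it did in 8.85% of all genes, while 7.05% of all genes had every AAV2-shCX36 library below. Of the 10 differences 5 were positive and 5 negative. Their median on the log2(FPKM + 1) scale was -0.01 against 0.01 over all genes tested, and the median size without regard to sign was 0.12 against 0.13. Differences on this scale understate the change of genes near 1 FPKM, such as Ppargc1a and Nrf1.

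**Figure D1:**
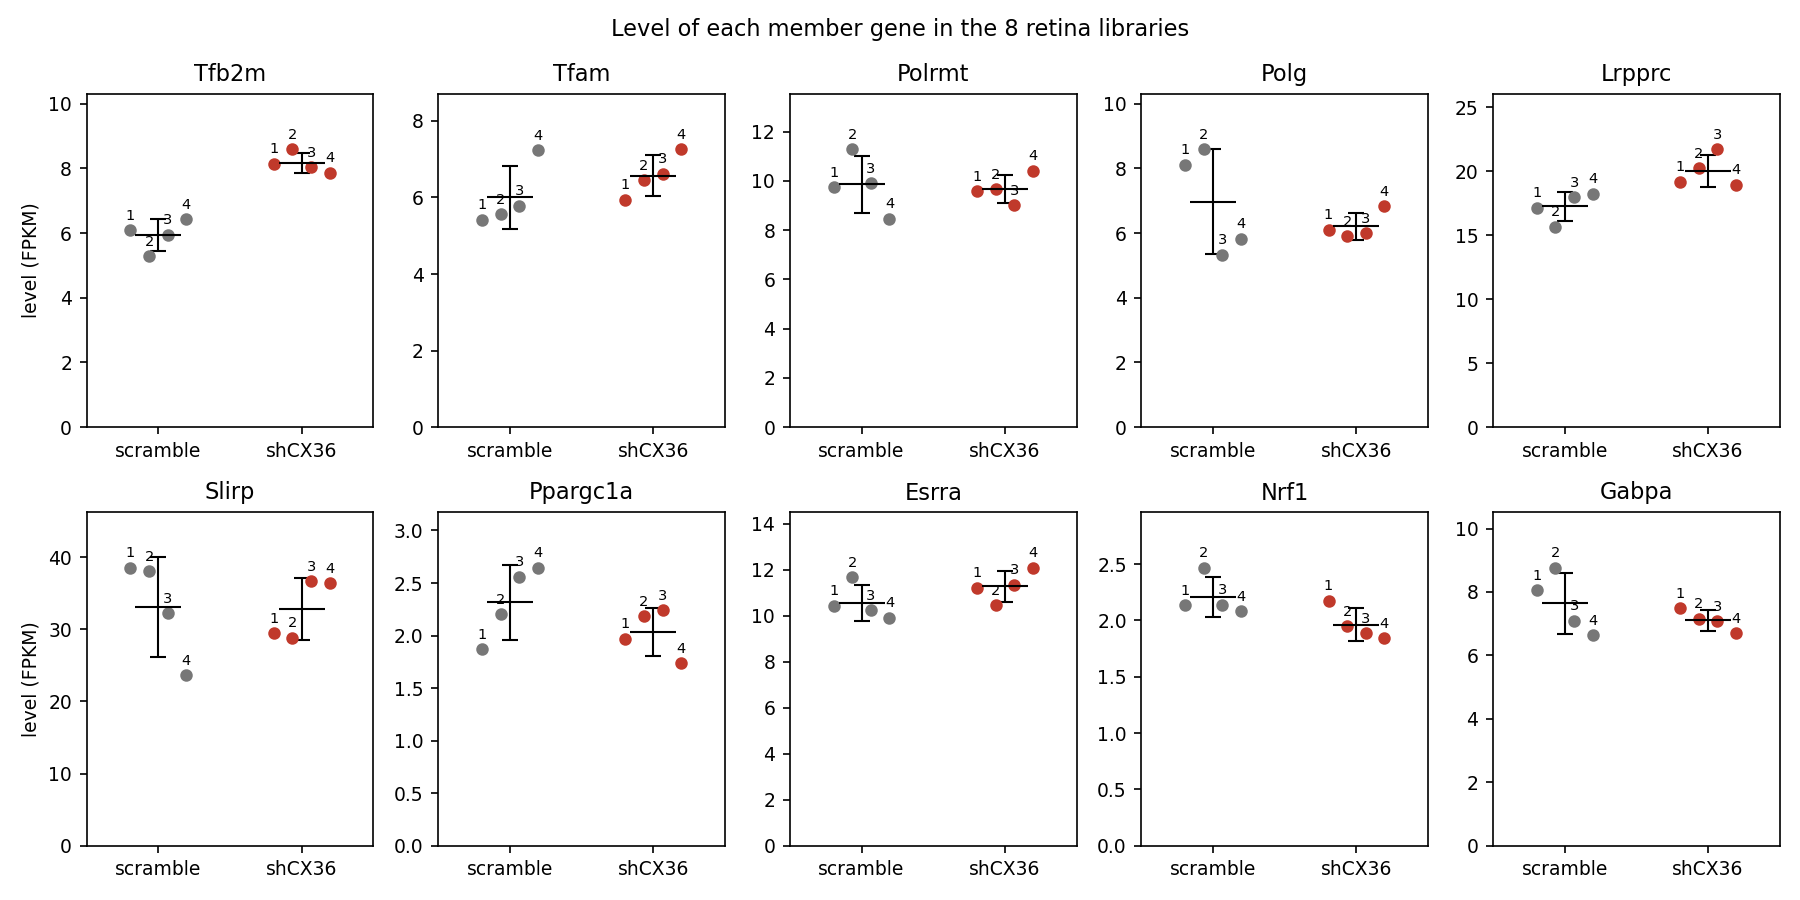
Level of each gene in FPKM (vertical axis from 0), with 1 numbered point per library, grey for AAV2-scramble and red for AAV2-shCX36, and the mean ± SD of the 4 libraries of a group. The red points lie wholly above the grey ones for Tfb2m and Lrpprc, and the groups overlap in the other 8 panels.

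By level, the RNA stability genes Slirp and Lrpprc led, and Ppargc1a and Nrf1 trailed. Slirp averaged 33.0 FPKM over the 8 libraries and Lrpprc 18.6, and Slirp lay above Lrpprc in all 8. Slirp shares 2914 of its 3104 annotated exon bases with Snw1 on the opposite strand (48.0 FPKM). Without a stated strand setting, how reads over the shared bases were counted is not known, so the level of Slirp is uncertain. Esrra followed at 10.9, Polrmt at 9.76, Gabpa at 7.37, Tfb2m at 7.05, Polg at 6.59 and Tfam at 6.28 FPKM. Each of these overlapped in range with its neighbour in this order, and Gabpa exceeded Tfb2m in only 4 of 8 libraries. Ppargc1a at 2.18 and Nrf1 at 2.09 FPKM were the lowest, below Tfam in all 8 libraries and not separated from each other. Over all 8 libraries the coefficient of variation ran from 7.06% for Esrra to 17.8% for Polg.

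Tfb2m encodes the factor that melts the mitochondrial promoter and lets the polymerase start. It lies on GRCm38 chromosome 1, 179528055 to 179546267, minus strand, and shares no exon bases with another annotated gene. Controls 1 to 4 had 6.09, 5.29, 5.95 and 6.43 FPKM, and AAV2-shCX36 1 to 4 had 8.14, 8.60, 8.04 and 7.87. All 4 AAV2-shCX36 libraries were high, within a narrow band, and the gap to the highest control was larger than the spread of either group. The mean rose from 5.94 ± 0.48 to 8.16 ± 0.31 FPKM (SD, n = 4), to 137% of the control level. The log2 difference was 0.40 ± 0.07 (SE), with an adjusted p of 0.0203 in limma and an exact permutation p (two-sided) of 0.0286, the smallest that 70 relabellings allow. Without AAV2-scramble 1 and 2 the difference was 0.35 (adjusted p = 0.0329 in limma). Leaving out AAV2-scramble 3 or AAV2-shCX36 1, 2 or 3 alone ended the call, with adjusted p of 0.0548, 0.0703, 0.0753 and 0.0612 in limma and differences of 0.38 to 0.41.

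The promoters of Tfb2m, Lrpprc and Tfam are shown because the first pair held the genes without overlap between groups, while Tfam is a textbook target of the NRF1 and GABP factors that are themselves among the 10. Each line gives the 150 bases before the RefSeq start site (GRCm38.p6, 5′ to 3′ on the gene's strand). Capitals mark a match on either strand to CGGAAG, the core recognised by ETS factors such as GABPA, to GCATGCG, a core of the NRF1 site, or to TCAAGGTCA, an element bound by ERRα.
Tfb2m, chr1:179546277-179546426, minus strand: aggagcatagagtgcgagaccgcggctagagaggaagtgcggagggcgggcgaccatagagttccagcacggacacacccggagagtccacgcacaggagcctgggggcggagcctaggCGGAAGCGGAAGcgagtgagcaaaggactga
Lrpprc, chr17:84790787-84790936, minus strand: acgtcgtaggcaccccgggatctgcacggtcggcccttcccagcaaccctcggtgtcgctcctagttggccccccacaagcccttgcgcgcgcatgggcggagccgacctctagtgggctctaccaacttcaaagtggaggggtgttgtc
Tfam, chr10:71238045-71238194, minus strand: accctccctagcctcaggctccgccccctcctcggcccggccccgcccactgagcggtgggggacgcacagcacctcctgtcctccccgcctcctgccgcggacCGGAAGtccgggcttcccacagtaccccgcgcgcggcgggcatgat

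In Tfb2m, 2 ETS cores stand in direct succession, 31 and 25 bases before the start, and Tfam has 1 at 46 bases before it. The Lrpprc window holds none of the 3 motifs. Over the full 300 bases around the start, from 250 before to 50 after, all 10 genes had a RefSeq entry, and the ETS core was present in 6 of them (Tfb2m, Tfam, Polrmt, Polg, Slirp and Gabpa). It stands in 16.9% of all 32851 promoters and in 34.3% of the 10232 tested genes with a promoter. The NRF1 core was present in 4 (Tfb2m, Polrmt, Gabpa and Esrra), where 3.58% of promoters and 7.22% of tested genes have it; in Tfb2m it lies just after the start, with overlapping matches on both strands from position 13 and 14. TCAAGGTCA occurred in none of the 10 and in 0.423% of promoters. These are matches of letters, not measured binding sites.

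Tfam and Polrmt, the partners of Tfb2m at the mitochondrial promoter, had no such separation. Tfam, the packaging and promoter-bending factor, had 5.42, 5.56, 5.79 and 7.23 FPKM in controls 1 to 4 and 5.95, 6.46, 6.62 and 7.26 in AAV2-shCX36 1 to 4. AAV2-scramble 4 sat with the highest AAV2-shCX36 library and the groups overlapped. Its log2 difference was 0.12 ± 0.10 (SE, adjusted p = 0.51 in limma), with a 95% interval from -0.10 to 0.34. Polrmt, the polymerase itself, had 9.75, 11.3, 9.91 and 8.47 FPKM in controls 1 to 4 and 9.58, 9.67, 9.0004 and 10.4 after AAV2-shCX36. Its AAV2-shCX36 values lay inside the control range, with a difference of -0.02 and an interval from -0.22 to 0.18.

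In a comparison chosen after the values were seen, 6 pairs of partners were set against each other as a ratio of FPKM within each library. Tfb2m per Tfam was 1.25 ± 0.13 after AAV2-shCX36 and 0.998 ± 0.10 in controls (SD, n = 4), a log2 difference of 0.32 with an exact permutation p of 0.0571. Tfb2m per Polrmt was 0.847 ± 0.06 against 0.613 ± 0.12, with the same exact permutation p of 0.0571. For each of these ratios, 3 of 4 AAV2-shCX36 libraries lay above every control, and the p adjusted over the 6 pairs was 0.171. At 4 libraries a group, a pair that alone reached the smallest exact p would also adjust to 0.171, so the adjusted values say little, and whether Tfb2m rose beyond its partners was not settled.

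Polg, the catalytic subunit of the polymerase that copies mitochondrial DNA, varied more among the controls than between the groups. Controls 1 to 4 had 8.11, 8.59, 5.33 and 5.83 FPKM, and AAV2-shCX36 1 to 4 had 6.11, 5.90, 5.995 and 6.83. The AAV2-shCX36 libraries lay between the pairs of controls, and the high pair was that with the higher Gjd2 and the higher oligodendrocyte, bipolar cell and microglia sums given above, whose part in it was not tested. With all libraries the log2 difference was -0.12 ± 0.14 (SE, adjusted p = 0.635 in limma). It turned to 0.13 (adjusted p = 0.401) without AAV2-scramble 1 and 2 and was -0.38, with a call (adjusted p = 0.0172), without AAV2-scramble 3 and 4. On the opposite strand Fanci shares 921 exon bases with Polg but averaged only 0.127 FPKM. Polg2, the accessory subunit, had 3.95, 4.75, 3.86 and 5.05 FPKM in controls 1 to 4 and 3.44, 2.16, 3.31 and 3.65 after AAV2-shCX36, without overlap but short of the threshold (log2 -0.39 ± 0.14 SE, adjusted p = 0.142 in limma). The Polg to Polg2 ratio was 2.05 ± 0.46 against 1.60 ± 0.40 (exact permutation p = 0.229, n = 4).

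Lrpprc, which binds mitochondrial mRNA and keeps it stable, lies on chromosome 17, 84705247 to 84790789, minus strand, with no shared exon bases. Controls 1 to 4 had 17.1, 15.7, 17.95 and 18.2 FPKM and AAV2-shCX36 1 to 4 had 19.2, 20.3, 21.7 and 19.0. The lowest AAV2-shCX36 value exceeded the highest control by less than 1 SD of either group. The means were 20.03 ± 1.27 and 17.2 ± 1.16 FPKM (SD, n = 4), 116% of control, with a log2 difference of 0.20 ± 0.07 (SE). The exact permutation p was 0.0286, but the adjusted p over all genes was 0.132 in limma, so it did not pass. It passed only without AAV2-scramble 3 and 4 (0.27, adjusted p = 0.0369), and without AAV2-scramble 1 and 2 the difference was 0.14 (adjusted p = 0.275).

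Slirp, the small RNA-binding partner of LRPPRC, had the widest spread in FPKM within the controls. Controls 1 to 4 had 38.6, 38.0, 32.2 and 23.6 FPKM and AAV2-shCX36 1 to 4 had 29.4, 28.8, 36.7 and 36.4. The groups overlapped fully, the log2 difference was 0.00 ± 0.16 (SE, adjusted p = 0.99 in limma), and the interval from -0.35 to 0.35 leaves room for a change as large as that of Lrpprc. Of its 3104 annotated exon bases, Slirp shares 2914 with Snw1 and 122 with Alkbh1 on the opposite strand. Snw1 averaged 48.0 FPKM and Alkbh1 6.37, and without a stated strand setting it is not known how reads over the shared bases were counted. The Lrpprc to Slirp ratio was 0.617 ± 0.08 against 0.546 ± 0.16 (exact permutation p = 0.4, n = 4), so a difference in response between the partners was not shown.

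**Figure D2:**
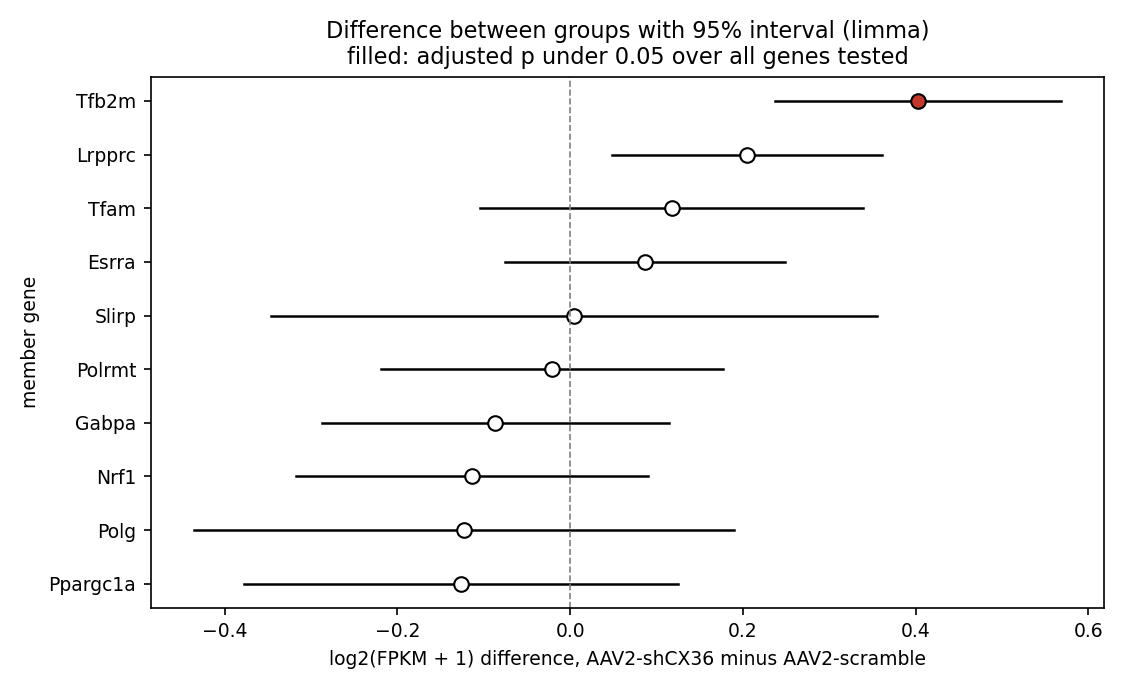
Log2 difference (of FPKM + 1) between AAV2-shCX36 and AAV2-scramble, positive where the former is higher (horizontal axis), for each gene, with its 95% interval from limma and a filled point where the adjusted p over all genes is under 0.05. Tfb2m at 0.40 is the filled point, and the intervals of 8 genes cross 0.

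The nuclear regulators of biogenesis showed no call. Ppargc1a, the coactivator at the head of the programme, had 1.87, 2.20, 2.56 and 2.65 FPKM in controls 1 to 4 and 1.97, 2.18, 2.24 and 1.74 in AAV2-shCX36 1 to 4. All 4 AAV2-shCX36 libraries were below the control mean, yet controls 1 and 2 were as low, and the log2 difference was -0.13 ± 0.11 (SE, adjusted p = 0.534 in limma; interval -0.38 to 0.12). Esrra, an orphan nuclear receptor that PGC-1α coactivates, had 10.4, 11.7, 10.2 and 9.90 against 11.2, 10.4, 11.3 and 12.1 FPKM, which overlapped, with a difference of 0.09 ± 0.07. It shares 73 exon bases with Trmt112 on the opposite strand.

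Nrf1, nuclear respiratory factor 1, had 2.14, 2.47, 2.14 and 2.08 FPKM in controls and 2.18, 1.95, 1.89 and 1.84 after AAV2-shCX36. Its 3 lowest values were all AAV2-shCX36 libraries, but AAV2-shCX36 1 sat among the controls, and the difference was -0.11 ± 0.09 (SE, adjusted p = 0.488 in limma). Gabpa, the DNA-binding subunit of the GABP factor, had 8.06, 8.77, 7.10 and 6.63 against 7.49, 7.15, 7.07 and 6.71 FPKM. Like Polg, it was highest in AAV2-scramble 1 and 2, and its difference of -0.09 ± 0.09 turned to 0.043 (adjusted p = 0.777) without that pair. Gabpa shares 397 exon bases with Atp5j, its neighbour on the opposite strand. Ratios of Gabpa to its partner Gabpb1 and of Ppargc1a to Esrra had exact permutation p of 0.4 and 0.229 (n = 4).

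Transcripts of the mitochondrial genome itself fell in the libraries where Tfb2m rose. The 13 mRNAs summed to 15389, 17981, 19157 and 16327 FPKM in controls 1 to 4 and to 10960, 12918, 13338 and 14209 in AAV2-shCX36 1 to 4, without overlap (exact permutation p = 0.0286, n = 4). Set against the control mean, the AAV2-shCX36 libraries held 63.7%, 75.0%, 77.5% and 82.5% of mitochondrial mRNA, while Tfb2m stood at 137%, 145%, 135% and 132%, Lrpprc at 111%, 117%, 126% and 110%, and Tfam at 99.1%, 108%, 110% and 121%. AAV2-shCX36 1 was the lowest for mitochondrial mRNA. Most of the sum came from COX1, CYTB and ND1, with means of 4510, 2822 and 2456 FPKM after AAV2-shCX36. Each was lower without overlap, but none of them was called (adjusted p = 0.203, 0.0914 and 0.171 in limma). The rod, cone and Müller glia sums were lower in the same libraries without overlap, with median log2 differences of -0.79, -0.73 and -1.06 over their markers, and their part in the fall of mitochondrial mRNA was not tested. Of the 13, 7 fell (ND2, ND3, ND5, ND6, COX2, ATP6 and ATP8). Their levels differed widely, with means after AAV2-shCX36 of 1016 FPKM for ND2 and 1034 for ND5. ATP8, ND3, ATP6 and COX2 had only 4.30, 13.3, 37.0 and 64.9 FPKM, and the reason was not tested. ND6, the only one of the 13 transcribed in the opposite direction, had 65.6 ± 5.34 FPKM after AAV2-shCX36 and 100.2 ± 3.16 in controls (SD, n = 4). Its log2 difference was -0.61 ± 0.07 (SE, adjusted p = 0.00238 in limma), and it was called whichever single library was left out. Without a stated strand setting, reads from the strand opposite ND6 cannot be told apart from its own. The other 6 each lost the call without AAV2-scramble 3, without AAV2-shCX36 2 or without AAV2-shCX36 3. ATP8 kept it in the other 5 omissions, while the rest lost it in further ones, with adjusted p up to 0.136. With library sums taken without the mitochondrial genes, the difference of Tfb2m was 0.39 (adjusted p = 0.0226).

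**Figure D3:**
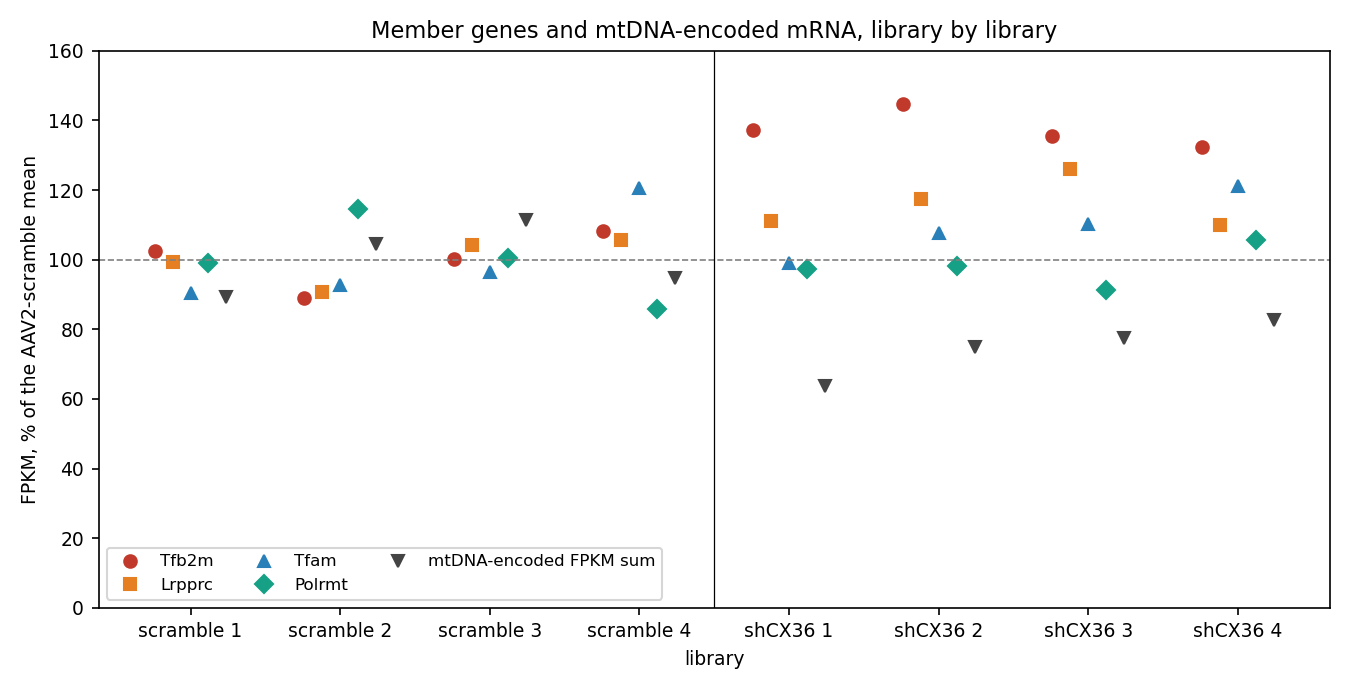
FPKM of 4 nuclear genes and the sum of the 13 mRNAs encoded in mitochondrial DNA, each as a percentage of its own AAV2-scramble mean (vertical axis, dashed line at 100), for the 8 libraries in turn. In the 4 AAV2-shCX36 libraries Tfb2m lies at 132% to 145% and the mitochondrial mRNA at 63.7% to 82.5%.

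Genes of the same pathways outside the 10 mostly had no call. Of 15 tested genes for mtDNA copying and maintenance and 5 for mitochondrial transcription, none passed in limma. An unadjusted p under 0.05, found in 22.6% of all genes, was held by 1 (Polg2) and 0 of them. The medians were 0.03 and -0.12 on the log2 scale. Ssbp1, which coats single-stranded mitochondrial DNA, had 7.58 ± 0.95 against 9.30 ± 2.10 FPKM and Top1mt, the mitochondrial topoisomerase, 8.78 ± 0.79 against 8.04 ± 0.58 (SD, n = 4). Mterf3, a repressor of mitochondrial transcription, had a log2 difference of -0.22 (adjusted p = 0.235), the elongation factor Tefm -0.22 and Mterf4, which serves mitochondrial ribosome assembly, -0.12. Tfb1m, the sister of Tfb2m that methylates mitochondrial ribosomal RNA, stood at 1.22 ± 0.14 against 1.24 ± 0.18 FPKM, a difference of -0.01.

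Among 31 genes for mitochondrial RNA processing, stability and decay none passed in limma. Where 22.6% of all genes had an unadjusted p under 0.05, 2 of the 31 had one, both higher. They were Elac2, which cuts transfer RNA ends (9.83 ± 0.65 against 8.42 ± 0.88 FPKM, adjusted p = 0.199), and Rexo2, which degrades short RNAs (32.1 ± 1.504 against 28.8 ± 2.05, adjusted p = 0.205). Fastkd1, a mitochondrial RNA-binding protein, had a difference of -0.19 (adjusted p = 0.258). The list median was 0.04.

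Esrrb and Mef2d, from the list of coactivators, partners and upstream regulators, fell. Of its 28 tested genes these 2 were called. An unadjusted p under 0.05 was found for 7 of the 28, 5 with a negative and 2 with a positive difference, near the 22.6% of all genes. Esrrb, an ERR family receptor known from rods, had 16.7, 17.6, 24.3 and 22.9 FPKM in controls 1 to 4 and 10.2, 8.95, 9.94 and 11.5 after AAV2-shCX36, and fell by 0.92 on the log2 scale (adjusted p = 0.00743 in limma). It was called whichever single library was left out. Mef2d, a transcription factor with a known part in photoreceptor gene expression, had 76.7 ± 0.65 against 96.1 ± 6.22 FPKM (SD, n = 4), a log2 difference of -0.32 (adjusted p = 0.0201), and lost the call without AAV2-scramble 3 or any 1 of the AAV2-shCX36 libraries (adjusted p 0.0567 to 0.0685). The rod marker sums given above were lower in the same libraries, and their part in these falls was not tested. Thrb, the thyroid hormone receptor β of cones, and Esrrg, another ERR gene, had differences of -0.46 and -0.54 (adjusted p = 0.0637 and 0.109), and Nfe2l1, a regulator of proteasome genes, had 0.29 (adjusted p = 0.0743).

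Downstream of these regulators, none of 14 reported NRF1 and GABP target genes passed in limma or had an unadjusted p under 0.05, and their median was 0.01. Cycs, cytochrome c, had 15.9 ± 0.30 against 13.6 ± 2.38 FPKM, Tomm34, a chaperone partner in protein import, 19.9 ± 0.75 against 17.996 ± 1.33, and Sdhb, of complex II, 50.9 ± 2.91 against 46.2 ± 4.87 (SD, n = 4). All 14 enzyme genes of the tricarboxylic acid cycle had a positive difference, as had 52.4% of all genes, with a median of 0.10. None passed in limma and 3 had an unadjusted p under 0.05, as had 22.6% of all genes. These were Ogdh (log2 0.24, adjusted p = 0.0561), Dlst (0.16, adjusted p = 0.103), both of the oxoglutarate dehydrogenase complex, and Sucla2 (0.18, adjusted p = 0.200).

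Markers of mitochondrial mass and protein quality had a median of 0.07 over 17 genes, and fusion and fission genes one of 0.13 over 10. No gene of either list passed in limma. An unadjusted p under 0.05, which 22.6% of all genes had in either direction, was found for 2 of the 17 and 3 of the 10, all higher. Those of the 17 were Phb and Hspa9, and those of the 10 were Opa1, Mff and Mief1. Phb, prohibitin, had 30.9 ± 1.18 against 26.1 ± 2.58 FPKM (SD, n = 4). The import motor chaperone Hspa9 had 77.1 ± 1.65 against 70.5 ± 3.38. Vdac3, an outer membrane channel, was not among them, with 104 ± 2.81 against 90.7 ± 13.8 (adjusted p = 0.264 in limma). Opa1, which fuses inner membranes, had a log2 difference of 0.20 (adjusted p = 0.137), Mff, the receptor that recruits the fission machinery, 0.18 and Mief1, another fission adaptor, 0.16.

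**Figure D4:**
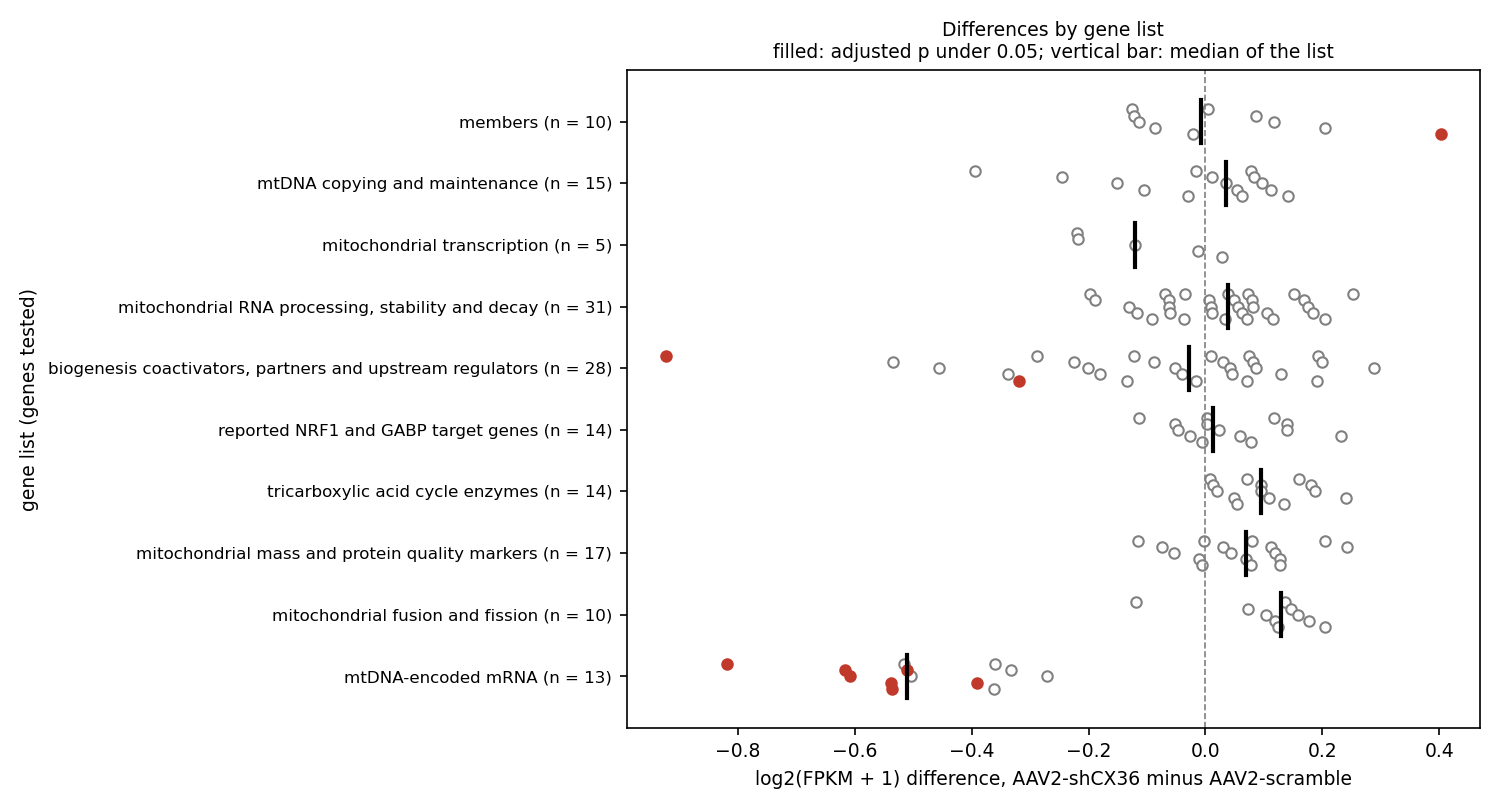
Log2 difference (of FPKM + 1), positive where AAV2-shCX36 is higher, for every tested gene of the 10 followed here (top line) and of 9 related lists, with the median as a bar and filled points at an adjusted p under 0.05. Filled points are Tfb2m, Esrrb, Mef2d and 7 mitochondrially encoded mRNAs, whose list has a median of -0.51.

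The genes whose profile over the 8 libraries lay nearest to that of Tfb2m were Asic1, an acid-sensing ion channel, Dbn1, the actin-binding drebrin, and Smyd5, a SET and MYND domain protein. After centring, their log2 profiles differed from it by 0.03 on average per library, among 9654 candidate genes. Asic1 had 8.90 ± 0.46 against 6.42 ± 0.625 FPKM, Dbn1 52.8 ± 0.92 against 41.2 ± 3.78 and Smyd5 17.3 ± 0.31 against 13.2 ± 1.18 (SD, n = 4). Nearest to Ppargc1a were Elmod3, Arl5b and Megf9, at 0.03, 0.04 and 0.04 among 12181 candidates. This is a description of these libraries, which share the group difference and the control pairs.

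**Figure D5:**
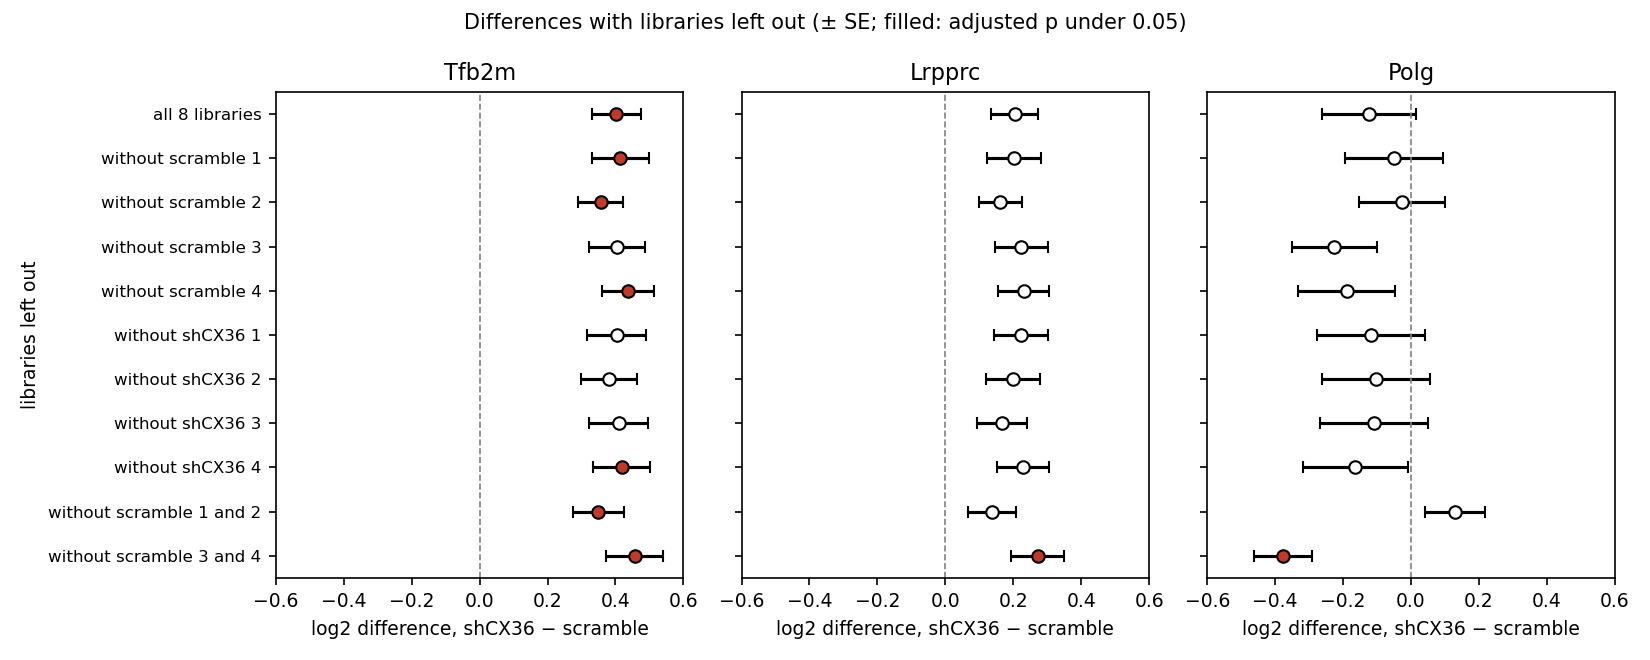
Log2 difference ± SE, positive where AAV2-shCX36 is higher, for Tfb2m, Lrpprc and Polg with all libraries and with libraries left out as named on the vertical axis; filled points have an adjusted p under 0.05. Tfb2m stays between 0.35 and 0.46, while Polg moves from 0.13 without AAV2-scramble 1 and 2 to -0.38 without AAV2-scramble 3 and 4.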

How the data were processed

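Per the labels' protocols, mouse retinal RNA was purified with RNeasy Micro columns and read on a NovaSeq in pairs of 150 bp. The submitters' processing notes name fastp, HISAT2, HTSeq, R 3.2.0 and DESeq2 and the builds GRCm38 and mm10. Gene lengths, filters and strand setting are not given in the sources used here. The authors deposited FPKM values for 8 libraries, without counts, so no count model was run. Columns were matched to samples by name, and groups come from the titles. The sources speak of different mice but tie no library to an animal, so p-values measure the spread between libraries.

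The fit used log2(FPKM + 1) in all 8 libraries and kept genes averaging 1 FPKM or more. It was made in R 4.3.3 with limma 3.58.1 (lmFit, then eBayes with its trend option). Benjamini-Hochberg adjustment ran over all genes tested, at a threshold of 0.05. Single values also had a two-sided exact permutation test. The procedure was tested on simulated data. Depth was estimated from low values of single-exon genes, within a preset range, and is approximate. Positions and exon overlaps come from GENCODE vM21 and promoters from RefSeq (GRCm38.p6).

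The 10 genes and the lists were chosen with earlier results of these data known. Named beside them were, per list, every called gene and up to 3 others with the smallest p, with 3 nearest profiles for Ppargc1a and Tfb2m; Tfb1m, Gabpb1, Gjd2 and the partner ratios were added after values were seen. Wbscr16 was counted once, as Rcc1l, and 1110008L16Rik was read as Prorp. Alternatives were pseudocounts of 0.1 and 0.5, no filter and one of 5 FPKM, 4 rescalings, no trend, library weights, a replicate block, and libraries left out. Python 3.11.15 served for tables (pandas 2.3.3, numpy 2.4.6) and for plots (matplotlib 3.10.9).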

Additional observations from a re-analysis of the deposited data

Results flagged for a closer look

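Among the 46 genes followed or named by rule, 92 groups of 4 libraries were searched for a library far from the others, and chance alone gives about 1 in 20. 3 were found. Nrf1 had 2.47 FPKM in AAV2-scramble 2 against 2.08 to 2.14 in the other controls. Nfe2l1 had 117.0 FPKM in AAV2-shCX36 2 against 107 to 109 in the rest of its group. Dlst had 34.7 FPKM in AAV2-scramble 3 against 37.2 to 37.3 in the other controls.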

How the results depend on the processing

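Under 21 alternatives Tfb2m kept its direction in all and its call in 16, with differences of 0.35 to 0.46. The count of the 10 genes called higher was 1, and 0 with the replicate block and 2 without AAV2-scramble 3 and 4; called lower it was 0, and 1 (Polg) without AAV2-scramble 3 and 4. With single libraries left out these counts were 0 to 1 and 0 to 0. Over all genes, 288 were called higher and 324 lower. These became 177 and 134 without a filter, 107 and 57 with the replicate block, 565 and 393 when controls 1 and 2 were left out, 1542 and 1914 when controls 3 and 4 were, and 96 to 575 higher and 70 to 591 lower with single libraries left out.

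Same-numbered libraries did not consistently deviate together (correlations of 0.13, -0.30, 0.23 and -0.27), and not every library correlated best with its own number. AAV2-shCX36 1 and 4 correlated positively with AAV2-scramble 1 and 2 and negatively with 3 and 4, and AAV2-shCX36 2 and 3 the reverse. Such a split by control pairs could mask a pairing, so this check showed none but cannot exclude one. Under the block the adjusted p of Tfb2m was 0.104 in limma, with the same difference of 0.40.

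The sign turned for values near 0. Without AAV2-scramble 1 and 2, Gabpa was at 0.043, Polg at 0.13 and Polrmt at 0.068. With single libraries left out Polrmt ranged from -0.085 to 0.041, positive without AAV2-scramble 2 (0.041) or AAV2-shCX36 3 (0.0096). Slirp was at -0.0088 with library sums without mitochondrial genes, -0.016 with library weights, -0.0022 with median-of-ratios scaling, -0.033 with quantile normalization and -0.22 without AAV2-scramble 3 and 4. With single libraries left out it ranged from -0.14 to 0.084, negative without scramble 3 or 4 or shCX36 3 or 4. The cause was not tested. The depth estimate was searched within a preset range and rests on 5 to 19 single-exon values per library. With annotated exon lengths it gives about 532 fragments for Tfb2m in its lowest library, a counting error of 4.34%. The lengths behind the FPKM are not given, so this error is approximate. Nrf1 and Ppargc1a have no value under the filter of 5 FPKM.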
